A study of Mus musculus with 10 samples.

Results

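Radial spokes and the nexin-dynein regulatory complex are the parts of a motile cilium that carry regulatory signals to its dynein motors. The 10 genes described here were chosen by name, with earlier results of these data known. Those of the radial spoke are Rsph1, Rsph3a, Rsph4a, Rsph9 and Rsph14, and those of the nexin-dynein regulatory complex are Drc1, Drc3, Drc7, Gas8 and Ccdc65. They were found among the 22180 genes that the platform's annotation names, and 11 of the 41345 probe sets carry 1 of these symbols alone, 2 of them for Rsph3a. All 10 genes passed the filter on dim genes, a mean log2 value of at least 4.58, and were among the 16635 genes tested.

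RNA came from nasal respiratory epithelium of E16.5 mouse embryos, cut by laser capture from paraffin sections of formalin-fixed embryos and hybridised to Affymetrix arrays. The wild-type group (WT) held 5 embryos, 4 labelled female and 1 labelled male (WT 3). The other group (triple knockout, TKO) held 5 embryos that were miR-449a/b/c-/- and also miR-34b/c-/- and miR-34a-/-, 2 labelled female (TKO 1 and TKO 3) and 3 labelled male. Both groups were fixed, cut and labelled by the same protocols. Over all probe sets the arrays correlated at 0.975 to 0.989, and their number, 5 per genotype, limits the precision. The labels give neither strain nor litter, and no source used here gives how the microRNA genes were inactivated. The probe sets of the targeted genes were read as a check of the labels. Mir449c ranged from 6.80 to 7.56 over the WT arrays and from 3.16 to 4.39 over the TKO arrays, and Mir449a from 6.86 to 7.56 and from 5.06 to 5.76. The arrays of Mir449b and Mir34b did not overlap either, but their ranges nearly touched. Mir449b ranged from 12.13 to 12.23 in WT and stayed bright in TKO, at 11.67 to 12.08. Mir34b ranged from 5.61 to 5.98 in WT and from 5.40 to 5.57 in TKO. Mir34a and Mir34c read 3.75 or less on every array. Where the deletions lie relative to these probe sets is unknown here, and a probe set outside a deletion checks nothing.

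In a motile cilium the radial spokes stand on the doublet microtubules and point at the central pair, with a stalk, a neck and a head. The nexin-dynein regulatory complex joins neighbouring doublets and keeps them from sliding freely, so that dynein force is turned into bending. Human mutations in several of these genes, among them RSPH1, RSPH4A, RSPH9, DRC1 and CCDC65, are known causes of primary ciliary dyskinesia, in which cilia of the airways and nose beat poorly. In the nasal epithelium these genes are expressed mainly by multiciliated cells.

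The deleted microRNAs are shown first because they define the knockout. RefSeq's table for GRCm38.p6 gave these mature 5p strands, written 5′ to 3′ with the seed (bases 2 to 8) in capitals, and these 4 share the seed GGCAGUG.
miR-34a-5p: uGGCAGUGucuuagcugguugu
miR-34b-5p: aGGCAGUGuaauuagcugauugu
miR-449a-5p: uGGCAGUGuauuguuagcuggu
miR-449c-5p: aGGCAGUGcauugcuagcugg

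Promoters are shown for the nexin-dynein genes with the lowest p-values, Drc1, Ccdc65, Drc3 and Gas8, whose values moved together over the arrays, and for Rsph9 of the spoke head, whose means differed by less than their SD. Each runs from 250 bases before to 50 bases after a RefSeq start site (GRCm38.p6), 5′ to 3′ on the gene's own strand. Capitals mark GTTGCC, a site of the RFX factors of ciliogenesis in its short form, and GTTGCTA, a related form, each on either strand. The region of Drc1 is chr5:30281143-30281442 on the plus strand, that of Ccdc65 is chr15:98707944-98708243 on the plus strand, that of Drc3 is chr11:60353130-60353429 on the plus strand, that of Gas8 is chr8:123518585-123518884 on the plus strand and that of Rsph9 is chr17:46144151-46144450 on the minus strand.
Drc1: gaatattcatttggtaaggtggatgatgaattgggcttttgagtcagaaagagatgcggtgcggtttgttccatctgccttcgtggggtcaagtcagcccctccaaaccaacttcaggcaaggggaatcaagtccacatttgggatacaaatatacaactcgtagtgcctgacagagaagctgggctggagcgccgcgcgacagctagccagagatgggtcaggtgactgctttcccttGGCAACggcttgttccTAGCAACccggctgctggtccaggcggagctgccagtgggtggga
Ccdc65: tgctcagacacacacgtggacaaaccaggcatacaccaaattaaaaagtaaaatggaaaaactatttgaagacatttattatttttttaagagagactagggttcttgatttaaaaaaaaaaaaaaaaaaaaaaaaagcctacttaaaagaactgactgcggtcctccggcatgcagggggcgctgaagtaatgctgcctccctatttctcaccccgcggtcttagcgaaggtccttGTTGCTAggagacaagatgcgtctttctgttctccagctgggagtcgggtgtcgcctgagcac
Drc3: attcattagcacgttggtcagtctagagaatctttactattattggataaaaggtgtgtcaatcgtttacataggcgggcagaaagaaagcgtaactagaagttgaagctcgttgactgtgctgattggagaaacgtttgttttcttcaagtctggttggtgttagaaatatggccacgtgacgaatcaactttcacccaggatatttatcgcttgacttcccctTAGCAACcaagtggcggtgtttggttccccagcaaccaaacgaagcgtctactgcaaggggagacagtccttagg
Gas8: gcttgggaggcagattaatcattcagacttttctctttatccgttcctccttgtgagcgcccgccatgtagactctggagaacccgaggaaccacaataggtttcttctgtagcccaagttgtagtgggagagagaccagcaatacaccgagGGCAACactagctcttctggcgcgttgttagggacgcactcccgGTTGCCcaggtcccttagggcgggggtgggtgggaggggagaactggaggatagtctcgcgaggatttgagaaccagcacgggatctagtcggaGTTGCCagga
Rsph9: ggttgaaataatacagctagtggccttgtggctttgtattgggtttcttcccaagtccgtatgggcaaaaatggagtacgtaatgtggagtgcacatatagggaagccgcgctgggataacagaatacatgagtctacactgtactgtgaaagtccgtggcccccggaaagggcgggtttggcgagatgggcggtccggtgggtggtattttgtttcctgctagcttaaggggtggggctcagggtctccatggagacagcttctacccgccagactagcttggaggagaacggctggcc

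A RefSeq promoter was matched for 8 of the 10 genes, all but Rsph1 and Rsph4a. GTTGCC lay in 2 of these 8, 1 copy in Drc1 and 3 in Gas8, and in a promoter of 14.1% of 27025 genes (12.5% of 32851 promoters of the same length). GTTGCTA was added to the search after the sequences had been read, so its count supports nothing. It lay in 4 of the 8 genes (Rsph14, Drc1, Drc3 and Ccdc65) and in a promoter of 4.28% of all genes (3.66% of promoters). Its match in Drc3 began 25 bases and that in Ccdc65 13 bases before the annotated start site, and that in Drc1 began 5 bases after it. No GTTGCC match overlapped a GTTGCTA match. The longer X-box, GTTGCC and GGNAAC with 2 bases between them (0.298% of promoters), and the forkhead motifs TGTTTAC (3.65%) and TGTTTGC (5.07%) were not found in these windows. Rsph3a, Rsph9 and Drc7 held neither GTTGCC nor GTTGCTA. The promoters printed above were picked by the p-values and means of their genes, so no link between sites and changes can be read from them. Such a link was not tested.

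Genotypes were compared as TKO minus WT with sex in the model, which asks how these genes change when the microRNAs are lost. Of the 10 genes, 1 fell (Drc3), none rose and 9 did not pass an adjusted p of 0.05 (limma, Benjamini-Hochberg over all genes tested). Over all 16635 genes, 1.12% fell and 4.39% rose, 5.51% in all. By an unadjusted p below 0.05, 5 of the 10 were lower (Drc3, Drc1, Gas8, Ccdc65 and Rsph14) and none higher, where 7.72% of all genes were lower and 13.2% higher (20.9% in either direction). The fitted change was below 0 for 9 of the 10 genes and for 50.2% of all genes, and the median change was -0.29 over the 10 and -0.00052 over all genes tested. Without WT 3, 6 of the 10 were below 0 and their median was -0.17, and without a sex term 7 were below 0. In bulk tissue, fewer ciliated cells and less RNA per ciliated cell cannot be told apart.

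**Figure D1:**
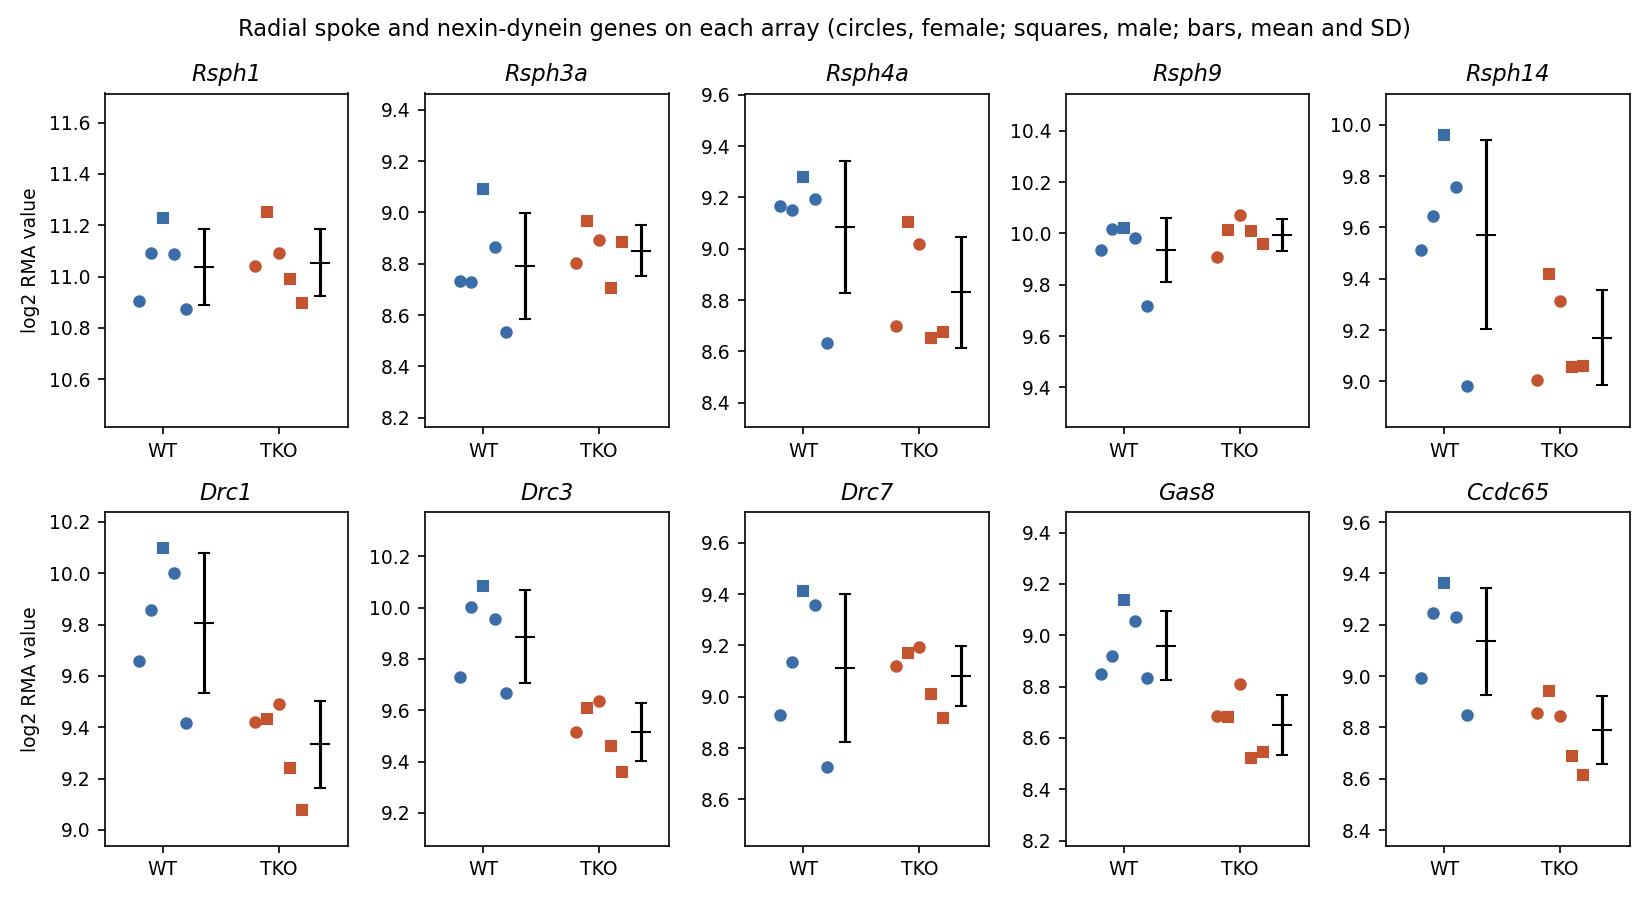
Log2 RMA value (y axis) of each of the 10 genes on every array, WT in blue and TKO in red, with circles for females, squares for males and bars for the mean and SD of 5 arrays. Each panel spans the same log2 range. All TKO points of Drc3 and Gas8 lie below all WT points, while those of Rsph1, Rsph3a, Rsph9 and Drc7 overlap the WT points over most of their range.

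Drc3 encodes a leucine-rich repeat protein in the link between neighbouring doublets. It read 9.73, 10.00, 10.09, 9.95 and 9.67 on WT 1 to WT 5 and 9.52, 9.61, 9.64, 9.46 and 9.36 on TKO 1 to TKO 5. Every TKO array was below every WT array, and the genotypes were closest between TKO 3 and WT 5, both from females. The means were 9.89 ± 0.18 in WT, against 9.52 ± 0.11 in TKO (SD, n = 5 each), and with sex in the model Drc3 fell by 0.39 on the log2 scale (SE 0.099, limma adjusted p = 0.0441), a WT level 1.31-fold that of TKO. Arrays of the genotypes did not overlap, with TKO lower, for 2 of the 10 genes and for 2.07% of all genes. With TKO higher they did not overlap for 0 of the 10 and for 5.54% of all genes, which makes 7.6% in either direction. The adjusted p lay close to the threshold: 13 of 25 alternative settings lost the call, among them the fits that left out WT 2, WT 3, WT 4 or any single TKO array. Without WT 3 the change was -0.26 (limma adjusted p = 0.299). Without WT 5 it was -0.43 (limma adjusted p = 0.0164), and over all 25 settings it ran from -0.50 to -0.26.

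Gas8 encodes a core subunit at the base of the complex, also known as DRC4. Its WT arrays read 8.85, 8.92, 9.14, 9.06 and 8.83 and its TKO arrays 8.69, 8.68, 8.81, 8.52 and 8.55. The genotypes did not overlap, but TKO 3 and WT 5 differed by little. The means were 8.96 ± 0.13 and 8.65 ± 0.12 (SD, n = 5 each), and the log2 change of -0.31 (SE 0.089, limma adjusted p = 0.0698) did not pass.

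Drc1 encodes another core subunit of the base, needed for the complex to assemble. It read 9.66, 9.86, 10.10, 10.00 and 9.42 on the WT arrays and 9.42, 9.43, 9.49, 9.24 and 9.08 on the TKO arrays. WT 5 lay inside the TKO range and the other WT arrays lay above it. The means were 9.81 ± 0.27 in WT, against 9.33 ± 0.17 in TKO (SD, n = 5 each), with a log2 change of -0.48 (SE 0.14, limma adjusted p = 0.0684) that did not pass.

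Ccdc65, which encodes the DRC2 partner of the Drc1 protein, read 8.99, 9.25, 9.36, 9.23 and 8.85 in WT and 8.86, 8.94, 8.84, 8.69 and 8.62 in TKO. Again only WT 5 lay inside the TKO range. The means were 9.14 ± 0.21 and 8.79 ± 0.13 (SD, n = 5 each), and the log2 change of -0.37 (SE 0.11, limma adjusted p = 0.0821) did not pass. Without WT 5, the WT array with the lowest value of each of these 4 genes, limma called Drc1 (-0.56, adjusted p = 0.0137), Gas8 (-0.33, adjusted p = 0.0451) and Ccdc65 (-0.42, adjusted p = 0.0242) as well as Drc3. Without WT 3 the change was -0.28 for Drc1, -0.17 for Gas8 and -0.23 for Ccdc65, and limma called none of the 10 genes.

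Drc7, the remaining nexin-dynein gene, encodes a subunit of the linker. It read 8.93, 9.13, 9.41, 9.36 and 8.73 in WT and 9.12, 9.17, 9.19, 9.01 and 8.92 in TKO. All TKO arrays lay inside the WT range. The means were 9.11 ± 0.29 and 9.08 ± 0.12 (SD, n = 5 each), and the log2 change of -0.060 had a 95% interval from -0.35 to 0.23 (limma adjusted p = 0.849). That interval includes the change measured for Gas8, so these arrays do not settle whether Drc7 fell by as much. Without WT 3 the fitted change turned to 0.12.

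Among the radial spoke genes, Rsph14 and Rsph4a had the lowest changes. Rsph14, an armadillo-repeat protein of the spoke, read 9.51, 9.65, 9.96, 9.76 and 8.98 in WT and 9.01, 9.42, 9.31, 9.06 and 9.06 in TKO. WT 5 was the lowest of all 10 arrays, and the other 4 WT arrays were above every TKO array. The means were 9.57 ± 0.37 and 9.17 ± 0.18 (SD, n = 5 each), with a log2 change of -0.48 (SE 0.16, limma adjusted p = 0.113) that did not pass with all arrays and passed without WT 5 (-0.59, limma adjusted p = 0.00936). Without WT 3 it was -0.32 (limma adjusted p = 0.474).

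Rsph4a, a protein of the spoke head, read 9.17, 9.15, 9.28, 9.20 and 8.63 in WT and 8.70, 9.11, 9.02, 8.65 and 8.67 in TKO. The pattern was that of Rsph14, with WT 5 lowest and the other WT arrays above all TKO arrays, TKO 2 being close to them. The means were 9.08 ± 0.26 and 8.83 ± 0.22 (SD, n = 5 each), and the log2 change of -0.28 (95% interval -0.60 to 0.034, limma adjusted p = 0.293) did not pass in any of the 25 settings and was -0.18 without WT 3.

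The other spoke genes gave values of similar size in both genotypes. Rsph1, a protein of the spoke head built of MORN repeats, ranged from 10.88 to 11.23 in WT and from 10.90 to 11.25 in TKO. Its means were 11.04 ± 0.15 and 11.05 ± 0.13 (SD, n = 5 each), and its log2 change was -0.017 (95% interval -0.21 to 0.18, limma adjusted p = 0.939). Rsph9, another protein of the spoke head, read 9.94, 10.02, 10.02, 9.98 and 9.72 in WT and 9.91, 10.02, 10.07, 10.01 and 9.96 in TKO, with WT 5 again lowest. Its means were 9.94 ± 0.13 and 9.99 ± 0.063 (SD, n = 5 each), and its log2 change was 0.038 (95% interval -0.12 to 0.20, limma adjusted p = 0.824).

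Rsph3a encodes a stalk protein that binds protein kinase A, and mouse carries a close copy, Rsph3b, so the probe sets of these genes may share signal. The brighter Rsph3a probe set ranged from 8.54 to 9.09 in WT and from 8.70 to 8.96 in TKO. Its log2 change was -0.0011 (95% interval -0.21 to 0.21, limma adjusted p = 0.998). The dimmer Rsph3a probe set averaged 7.10 ± 0.32 in WT, against 7.31 ± 0.22 in TKO (SD, n = 5 each), a change of 0.22 (95% interval -0.15 to 0.58 in a fit of all named probe sets). Rsph3b had means of 9.71 ± 0.18 and 9.73 ± 0.099 and a log2 change of -0.0079 (limma adjusted p = 0.974).

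**Figure D2:**
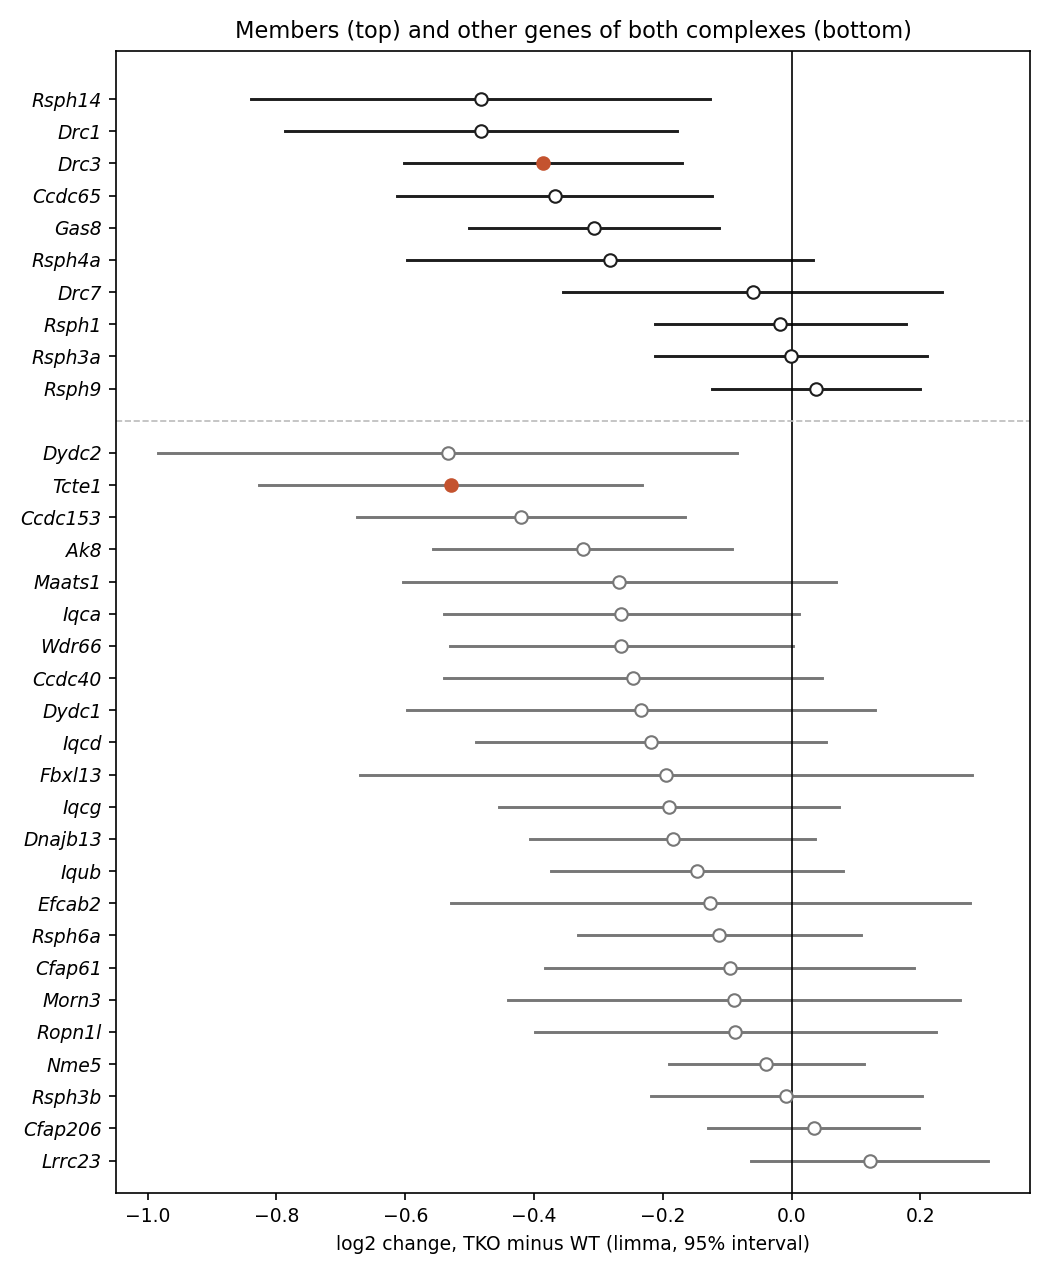
Log2 change, TKO minus WT (x axis), with its 95% interval from limma for the 10 genes (top, black) and for 23 other radial spoke and nexin-dynein genes (bottom, grey), each set in order of its change. Filled red points passed an adjusted p of 0.05: Drc3 at -0.39 above and Tcte1 at -0.53 below.

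The plot of intervals shows how the 10 genes differed among themselves. The 95% intervals of 5 genes lay below 0 (Rsph14, Drc1, Drc3, Ccdc65 and Gas8) and those of the other 5 included 0. The interval of Drc3, -0.60 to -0.17, and that of Rsph9, -0.12 to 0.20, had no value in common, whereas the interval of Drc7 overlapped both. Differences in change between genes were not tested. A knockout change of the size measured for Drc3 lies outside the intervals of Rsph1, Rsph3a, Rsph9 and Drc7 and inside that of Rsph4a.

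The arrays with the highest and lowest values were largely shared among the 10 genes. WT 3 held the highest value of 8 of the 10 genes, and the lowest value was on WT 5 for 6, on TKO 5 for 3 and on TKO 4 for 1. The mean of the 10, each centred on its own mean, was 0.34 on WT 3, 0.22 on WT 4, 0.15 on WT 2, 0.011 on WT 1 and -0.21 on WT 5. On the TKO arrays it was 0.029 on TKO 2, 0.0070 on TKO 3, -0.12 on TKO 1, -0.20 on TKO 4 and -0.23 on TKO 5. WT 5 thus stood with the lowest TKO arrays, and the genotypes overlapped in this mean.

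The 45 pairs of these genes had Pearson r from 0.06 to 0.98 over the 10 arrays. This is a description, since genotype and tissue composition differ among the arrays and either can move genes together. Drc1, Drc3, Gas8 and Ccdc65 had r from 0.92 to 0.98 with each other, and Rsph1, Rsph3a and Rsph9 had 0.63 to 0.75 with each other. Pairs between these 2 groups, which were drawn after the values were seen, had r from 0.06 to 0.58. With each genotype's mean removed, pairs between them had 0.56 to 0.94 and all 45 pairs 0.56 to 0.98. With genotype means removed, then, all 10 genes tended to be high in the same embryos. These r values pool both genotypes, the WT arrays weigh more through their larger spread, and r was not computed within TKO alone. The spread over arrays was larger in WT than in TKO for all 10 genes, against 52.6% of the 16635 genes tested. For Drc7 the SD was 0.29 in WT and 0.12 in TKO, for Rsph14 0.37 and 0.18, and for Rsph1 0.15 and 0.13 (n = 5 each). The 10 genes vary in the same embryos and are not independent, and the difference in spread was not tested.

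**Figure D3:**
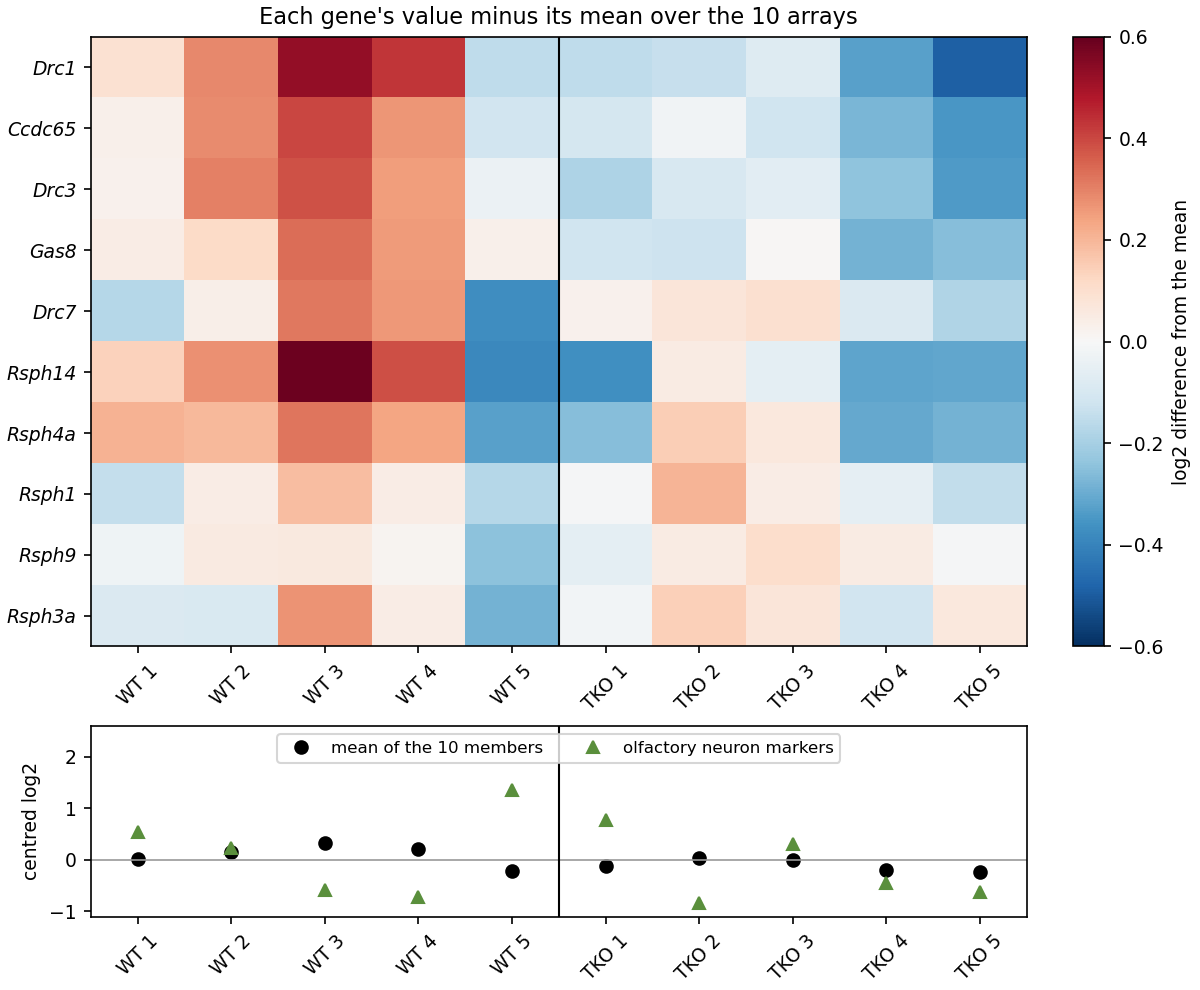
Top: each gene's log2 value minus its mean over the 10 arrays, by array, red for higher and blue for lower. Bottom: the mean of the 10 genes (black circles) and of 6 olfactory neuron markers (green triangles), both centred, on the same arrays. WT 3 is highest for 8 genes, and WT 5, lowest for 6 genes, has the highest olfactory score, 1.37.

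Marker lists were read beside this pattern, as the mean of each list's centred log2 values per array. None of 6 olfactory neuron genes passed, and their score ran from -0.73 to 1.37 in WT and from -0.83 to 0.77 in TKO. WT 5 had the highest olfactory score of all arrays, while WT 3 and WT 4, the arrays with the highest mean of the 10 genes, stood at -0.59 and -0.73. The TKO arrays followed that order only in part. TKO 2, with the highest mean of the 10 genes among them (0.029), had the lowest olfactory score, -0.83. TKO 1, with a mean of -0.12, had the highest, 0.77. On the other hand TKO 5 and TKO 4, with the lowest means, had olfactory scores of -0.63 and -0.44, and TKO 3, with a higher mean, had 0.31. With that score as a covariate, an alternative added after the data were seen, limma called 3 of the 10 genes and 1045 of all 16635, against 916 in the fit without it: Drc3 (-0.37, adjusted p = 0.0349), Drc1 (-0.46, adjusted p = 0.043) and Rsph14 (-0.44, adjusted p = 0.0487).

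Lists for tissue beneath the epithelium ranged widely in both genotypes, and several had changes below 0 like the 10 genes: 8 of 8 skeletal muscle genes (median log2 change -0.61), 10 of 10 mesenchyme genes (-0.39) and 5 of 5 endothelial genes (-0.39). Each of these medians, with sex in the model, was further below 0 than the -0.29 of the 10 genes. Without a sex term the median of the 10 was -0.28, and those of these lists were not computed, so this order is given for the fit with sex only. The group means of the list scores, which take no account of sex, differed less for mesenchyme and endothelium than for muscle. They were 0.04 in WT and -0.04 in TKO for mesenchyme and 0.08 and -0.08 for endothelium. For skeletal muscle they were 0.27 and -0.27. By group means, Col1a2 (10.69 in WT, 10.84 in TKO), Twist1 (6.53, 6.62), Pdgfrb (6.52, 6.58) and Pecam1 (5.66, 5.71) were higher in TKO. They are named after their values were seen, and the other genes of these lists had lower means in TKO. The skeletal muscle score ran from -0.45 to 0.97 in WT, highest on WT 3, and from -0.55 to 0.19 in TKO, and 2 of 8 muscle genes fell. The mesenchyme score ran from -0.52 to 0.48 in WT and from -0.84 to 0.58 in TKO, with 1 of 10 genes falling, and 1 of 5 endothelial genes fell. None of 5 cartilage, 5 leukocyte and 3 glia genes passed. Those that fell, named here after their values were seen, were Tnnt3, Ttn, Col3a1 and Tie1. With the mean score of these 6 lists as a covariate, Drc3 had a change of -0.50 (limma adjusted p = 0.0894), Drc1 and the other genes did not pass either, and all 10 changes were below 0 with a median of -0.36.

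General epithelial genes were read too, of which Krt8 and Epcam are named after their values were seen. Being general, they do not tell the labelled nasal respiratory epithelium from another epithelium. Krt8, a keratin of simple epithelium, was at 11.57 ± 0.017 in WT and 11.60 ± 0.075 in TKO, and Epcam, an epithelial adhesion protein, was at 8.55 ± 0.20 and 8.68 ± 0.046 (SD, n = 5 each). None of 7 epithelial genes passed, and their score ran from -0.08 to 0.07 in WT and from -0.07 to 0.10 in TKO. Krt8 and Epcam had changes above 0, while 3 of the 7 (Cdh1, Krt19 and Elf3) had changes below 0. The median of the 7 was 0.025. Among 4 basal cell genes Ngfr fell, and all 4 had changes below 0 (median -0.22). None of 6 secretory genes passed, and 0 of the 6 had a change below 0 (median 0.26). The secretory score ran from -0.73 to 0.32 in WT and from -0.03 to 0.53 in TKO, and Scgb1a1 and Scgb3a2 were below the filter on dim genes. Among 10 genes that regulate or mark multiciliated cells, 4 rose and none fell, and the score of every TKO array (0.01 to 0.21) was above that of every WT array (-0.20 to -0.02). The 4 were Gmnc (1.55), Ccno (0.76), Mcidas (0.55) and Myb (0.46), regulators that act early in making a multiciliated cell. Gmnc, with the largest change, weighs most in the score, which was not computed without it. Arrays of Gmnc, Ccno and Mcidas did not overlap between genotypes, and those of every other gene on the list did. Another 4 of the list had changes below 0 that did not pass: Rfx2 (-0.29), Tppp3 (-0.21), Tubb4b (-0.079) and Rfx3 (-0.020). Foxj1 (0.21, limma adjusted p = 0.0784) and Trp73 (0.061) had changes above 0 that did not pass either. Rfx2 is a transcription factor of ciliogenesis and Tppp3 a marker of mature ciliated cells. The genes of this list that did not pass are named after their values were seen. The part of any of these cell types in the changes of the 10 genes was not tested beyond the covariates given.

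Other genes of the same complexes came from a list of 24 genes with a probe set, of which 23 were tested and Ropn1 was too dim. Of the 23, 1 fell, none rose and 22 did not pass. The changes were below 0 for 21 of 23, with a median of -0.19. The gene that fell was Tcte1, which encodes the DRC5 subunit: it went from 9.93 ± 0.25 in WT to 9.37 ± 0.19 in TKO (SD, n = 5 each), a log2 change of -0.53 (SE 0.14, limma adjusted p = 0.045). On single arrays Tcte1 read 9.91, 10.13, 10.05, 10.05 and 9.50 in WT and 9.43, 9.47, 9.59, 9.11 and 9.23 in TKO, and WT 5 was the only WT array below any TKO array. Its call was lost in 14 of 25 settings, all of the single arrays left out among them except WT 5, and its change ran from -0.65 to -0.39.

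The other numbered subunits of the nexin-dynein complex, listed here to complete it, did not pass. Ccdc153, the gene of DRC12, had a log2 change of -0.42 (limma adjusted p = 0.0599), from 11.93 ± 0.26 to 11.56 ± 0.11 (SD, n = 5 each). Iqca was at -0.26, Iqcd at -0.22, Fbxl13 at -0.20, Iqcg at -0.19 and Efcab2 at -0.13. All of these are below 0 and above the change of Tcte1, and those of Fbxl13 and Efcab2 turned positive without WT 3. Of the listed spoke genes, Lrrc23 (0.12) and Cfap206 (0.034) had the only changes above 0.

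Lists of other axonemal parts were read in the same fit. Of 22 tested genes of the axonemal dyneins and their assembly none passed, 19 were below 0 and the median was -0.14; Armc4 (-0.41, limma adjusted p = 0.0526) and Dnah1 (-0.43, limma adjusted p = 0.0717) had the smallest p. Of 15 tested central apparatus genes none passed, 9 were below 0 and the median was -0.098. Hydin (-0.60, limma adjusted p = 0.0646) and Spef1 (-0.25, limma adjusted p = 0.223) had the smallest p. The value of Hydin is that of its brightest probe set, and the mean of its probe sets changed by -0.31 (limma adjusted p = 0.223). The medians of the 10 genes (-0.29), the other spoke and nexin-dynein genes (-0.19) and these lists were not compared by a test.

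The tested genes whose values over the 10 arrays were most like the mean of the 10 genes were Ttc29 (Pearson r 0.987), Iqcd (0.985), Dnah9 (0.984), Ccdc113 (0.982) and the gene model Gm6976 (0.981). Their own log2 changes were -0.37, -0.22, -0.51, -0.23 and -0.34, and none passed. Among the 10 genes, r with the mean of the other 9 was highest for Rsph14 (0.964), Ccdc65 (0.931) and Drc1 (0.921) and lowest for Rsph9 (0.448).

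**Figure D4:**
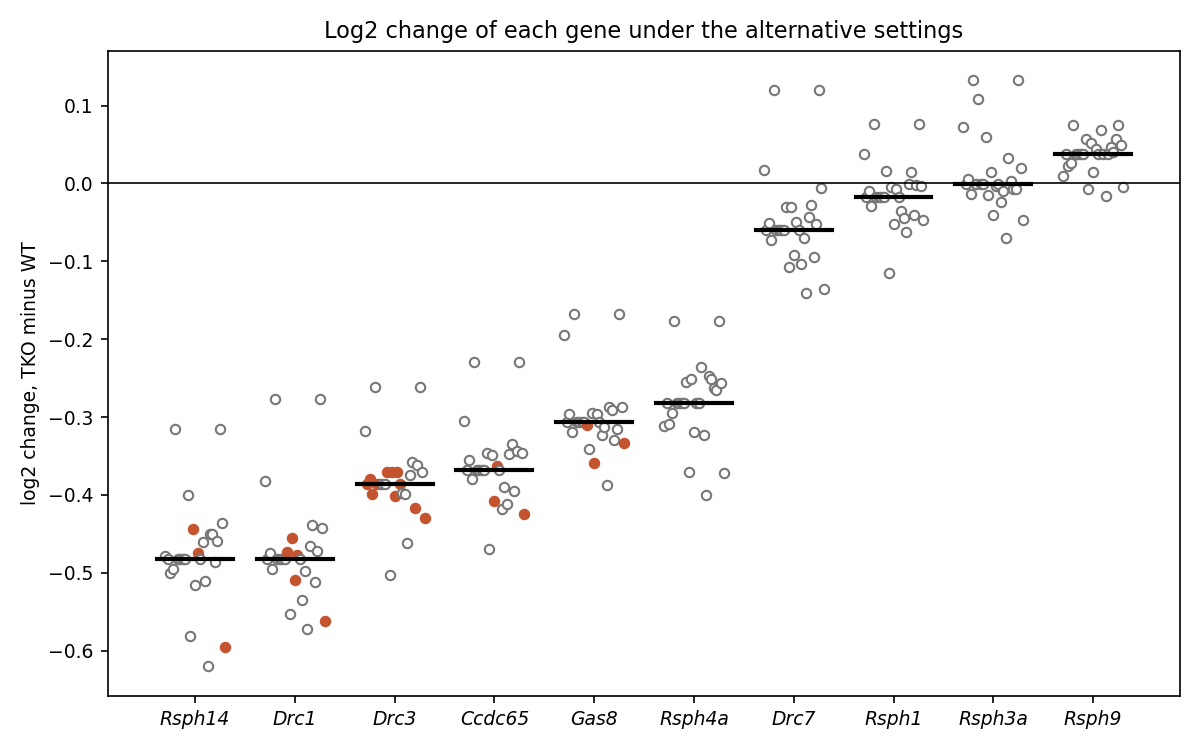
Log2 change, TKO minus WT (y axis), of each of the 10 genes under 25 alternative settings (points, red where the adjusted p was below 0.05) and with the settings of the report (black bars), ordered by change. Drc3 was called in 12 of the 25 settings, and the changes of Rsph14, Drc1, Drc3, Ccdc65, Gas8 and Rsph4a were below 0 in all 25.

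Across the alternatives, Rsph14, Drc1, Drc3, Ccdc65, Gas8 and Rsph4a were below 0 in each of 25 settings, the highest value of any being -0.17, for Gas8 without WT 3. Rsph1, Rsph3a, Rsph9 and Drc7 changed sign in some settings and stayed between -0.14 and 0.13. Drc3 was called in 12 settings, Drc1 in 5, and Rsph14, Gas8 and Ccdc65 in 3 each. All settings use the same embryos, so keeping a direction in them is no independent evidence.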

How the data were processed

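The deposited log2 values were made by the authors with RMA in the Affymetrix Expression Console, per the submitters' processing notes; no source used here gives its version, the level of summary or the array's genome build. Values from 1.5 to 13.7 put them on a log2 scale. RMA brings arrays to a common distribution, so a shift shared by most genes would not show. No scanner files were used here, so no detection call is given.

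The 10 genes and all lists were chosen with earlier results of these data known. Of 41345 probe sets 23521 had 1 symbol, and 23328 of these matched RefSeq (GRCm38.p6) by gene ID. Per gene the brightest probe set was kept (22180 genes), and genes below the 25th percentile of mean level (log2 4.58) were left out. limma 3.58.1 in R 4.3.3 fitted genotype and labelled sex with an intensity trend, with two-sided tests and Benjamini-Hochberg adjustment over 16635 genes. Named genes were the 10 members, of the 3 lists of other axonemal genes those past the threshold or else the 2 with the smallest p, and the 5 genes most like the members' mean by Pearson r. Marker genes past the threshold are named too, and other names are marked where they stand. Scripts were tested on simulated data. Alternatives changed the sex term, block, filter, scaling, variance model, array weights, probe set rule, arrays included and covariates. Figures were drawn with matplotlib 3.10.9.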

Additional observations from a re-analysis of the deposited data

Results flagged for a closer look

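Among 22 groups of 5 arrays (11 probe sets in each genotype), 3 held an array whose gap to its nearest neighbour was above Dixon's 95% critical value of 0.71 of the range, a rule that chance meets in about 1 of 20 groups. WT 5 was low for Rsph4a, at 8.63 with the next WT array at 9.15 (a gap of 0.80 of the range), and for Rsph9, at 9.72 with the next at 9.94 (0.72 of the range). WT 2 was low on the dimmer probe set of Rsph3a, at 6.54 with the next at 7.20 (0.90 of the range), and it was not low on the brighter Rsph3a probe set, where it read 8.73.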

How the results depend on the processing

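Limma called 1 of the 10 genes and 1 of 23 other spoke and nexin-dynein genes with the settings of the report. For the 10, the count was 3 without a sex term (Drc1, Drc3 and Gas8), 4 with quantile normalization of the tested genes, 3 with the olfactory score as a covariate, and 0 without the filter on dim genes, without the intensity trend, among females only, adjusted for the non-epithelial score and without both WT 3 and WT 5. Over all 16635 genes the fits called 916 with the settings of the report, 1031 without a sex term, 866 with quantile normalization, 1045 with the olfactory score, 812 without the trend, 56 among females, 153 with the non-epithelial score and 305 without WT 3 and WT 5, and 779 of 22180 without the filter. By an unadjusted p below 0.05 these 5 fits that called none had 5, 5, 0, 5 and 4 of the 10. For the other 23 genes the count was 2 with the filter at the 50th percentile, with quantile normalization, with array weights and with the olfactory score, and 0 in the same 5 fits (unadjusted 5, 4, 1, 7 and 4). Leaving out each array in turn gave 0 to 5 for either set, 5 in both without WT 5, and 0 for the 10 in 8 of 10 such fits (unadjusted 1 without WT 3, 5 or 6 otherwise). Over all genes these fits called 210 without WT 3 and 307 without TKO 3, the fewest, and 1284 without WT 5, the most. With sex in the model, the fit without WT 3 takes the genotype effect from females alone, so it and the females-only fit give the same changes. Without the filter more genes are tested; for the other settings the cause was not tested. The olfactory covariate and the joint loss of WT 3 and WT 5 were added after the data were seen.

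The labels do not say whether embryos of the same replicate number shared a litter or a batch. Deviations from the group means correlated at -0.127 to 0.379 between arrays of the same number. Of 10 arrays, 2 correlated best with their own number. So few pairs cannot settle whether the numbers pair the embryos. With the replicate number as a block, 4 of the 10 genes (Drc1, Drc3, Ccdc65 and Rsph14) and 3 of the other 23 were called, as were 1053 of all 16635. The SE was lower with this block than without it for each of the 10 genes, as for Drc3 (0.068 against 0.099). Whether a factor shared by arrays of the same number lay behind this was not tested.

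Changes that turned sign were small. Rsph3a was at 0.060 without a sex term, 0.0061 with array weights, 0.11 as the mean of its probe sets, 0.13 among females, 0.015 with the olfactory score and 0.073 without WT 3 and WT 5, and -0.070 to 0.13 with single arrays left out. Rsph1 was at 0.016 without a sex term, 0.076 among females and 0.038 without WT 3 and WT 5, and -0.063 to 0.076 with single arrays left out. Rsph9 was at -0.0074 with the non-epithelial score and -0.017 to 0.075 with single arrays left out. Drc7 was at 0.12 among females and 0.017 without WT 3 and WT 5, and -0.14 to 0.12 with single arrays left out. Among females Fbxl13 was at 0.072 and Efcab2 at 0.091, with ranges of -0.39 to 0.072 and -0.30 to 0.091 over single arrays left out.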
